A study of Homo sapiens with 8 samples.

Results

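The 48 mitotic and G2/M genes described here encode the proteins that take a cell from G2 phase through chromosome segregation to division. They form a list of gene symbols, each read from its probe set of highest mean, and all 48 were measured among the 18417 named genes of the arrays. RNA had been labelled from LNCaP and DU145, both established human prostate cancer cell lines, grown in RPMI medium with fetal bovine serum. LNCaP needs androgen signalling for growth and DU145 does not. Transfection was with miR-29b or its negative control miRNA (nc), or with siRNA, either against TET2 (siTET2) or a control (siControl), and cells were taken 72 hours later. There were 8 arrays, 1 for each of the 4 constructs in each of the 2 lines, so no combination of line and construct had a replicate, and a single siRNA sequence or pool stood for TET2 loss.

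Expression of these genes is periodic. Their transcripts are low in G1 and climb to a peak in G2 and mitosis, so that in a growing culture their level follows the share of cells near division. The complex DREAM holds them silent in resting cells, and the MuvB core with B-MYB and FOXM1 switches them on. Both act through a promoter element called the cell cycle genes homology region (CHR), and many of these promoters also carry CCAAT boxes, which bind NF-Y. The proteins include the kinase CDK1 with its cyclins, the Aurora and Polo kinases, the motors and fibres of the spindle, the kinetochores that tie chromosomes to it, the checkpoint that delays anaphase and the machinery that cuts the dividing cell.

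The stretch just upstream of the start site is shown for 5 members with kinase, cyclin, spindle or cytokinesis roles. All 5 hold both CHR and CCAAT letters, whereas 21 of the 41 members with a promoter window do. CDC25C, CENPE, CENPI and KIF2C hold neither. Each stretch holds the 180 bases before the RefSeq start site (GRCh38.p14), written 5′ to 3′ on the strand of the gene, with TTTGAA (CHR) and CCAAT in either orientation in capitals.
CDK1, the mitotic kinase, chr10:60778151-60778330, plus strand: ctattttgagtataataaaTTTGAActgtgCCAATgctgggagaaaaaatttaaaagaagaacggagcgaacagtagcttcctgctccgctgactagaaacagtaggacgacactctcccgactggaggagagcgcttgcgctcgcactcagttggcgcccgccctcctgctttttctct
CCNB2, cyclin B2, chr15:59104966-59105145, plus strand: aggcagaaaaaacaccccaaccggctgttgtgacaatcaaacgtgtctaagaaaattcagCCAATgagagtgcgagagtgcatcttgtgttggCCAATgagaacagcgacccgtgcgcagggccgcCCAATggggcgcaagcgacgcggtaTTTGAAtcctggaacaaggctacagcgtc
PLK1, Polo-like kinase, chr16:23678709-23678888, plus strand: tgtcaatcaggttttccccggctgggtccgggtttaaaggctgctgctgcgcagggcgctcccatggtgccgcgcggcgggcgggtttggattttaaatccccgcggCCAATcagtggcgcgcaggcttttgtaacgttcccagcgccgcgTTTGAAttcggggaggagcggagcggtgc
PRC1, the midzone bundling protein, chr15:90994536-90994715, minus strand: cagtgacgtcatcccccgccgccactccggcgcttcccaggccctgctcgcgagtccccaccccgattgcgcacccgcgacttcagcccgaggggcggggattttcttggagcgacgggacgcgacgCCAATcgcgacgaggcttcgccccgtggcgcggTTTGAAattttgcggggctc
HMMR, a spindle-associated hyaluronan receptor, chr5:163460452-163460631, plus strand: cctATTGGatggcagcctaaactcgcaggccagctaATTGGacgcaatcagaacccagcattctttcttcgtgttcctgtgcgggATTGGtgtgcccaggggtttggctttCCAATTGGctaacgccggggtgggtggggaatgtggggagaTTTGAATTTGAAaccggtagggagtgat

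CCNB2 shows 3 CCAAT matches followed by 1 CHR match, and HMMR shows 2 CHR matches side by side. A RefSeq promoter window, from 250 bases before to 50 after the start, was found for 41 of the 48 members; AURKA, BUB3, TTK, UBE2C, CENPH, BIRC5 and TPX2 had no entry. TTTGAA on either strand was in 29 of the 41 windows (70.7%), against 11.9% of 14239 windows of named genes on the array and 15.4% of all 27305 windows. CCAAT on either strand was in 29 of 41 as well (70.7%), against 36.3% and 35.7%, and both motifs were in 21 of 41 (51.2%), against 4.86% and 6.08%. The letters of the motifs overlapped in 2 of the 41 windows. Among other genes of the pathway, 29 of 51 windows of further mitotic genes held TTTGAA, but 1 of 26 windows of DNA replication genes did, while CCAAT was in 35 and 15 of them. These matches are descriptions of letters and no evidence of binding.

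**Figure D1:**
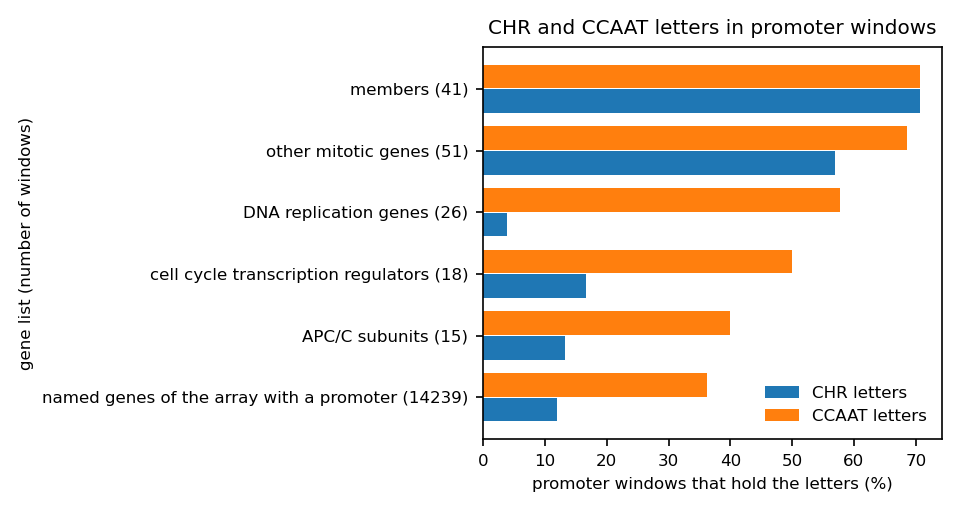
Share of RefSeq promoter windows (x axis, percent) that hold the CHR letters TTTGAA (blue) or the CCAAT letters (orange) on either strand, for the members, for 4 other gene lists and for all named genes of the array with a window; the number of windows stands in parentheses. CHR letters are in 70.7% of the member windows and in 3.85% of those of DNA replication genes, whereas CCAAT letters are in 70.7% and 57.7%.

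Cell line markers and TET2 were set against the labels; miR-29b itself was not checked. Of 7 LNCaP marker genes measured, 6 or 7 lay above the array median in LNCaP and 1 in DU145, and of 11 DU145 marker genes 10 lay above it in DU145 and 0 in LNCaP. TET2 had a log2 level of 9.01 with siControl and 7.89 with siTET2 in LNCaP, and of 7.85 and 6.60 in DU145. It was also lower with miR-29b (8.59) than with nc (9.24) in LNCaP, by -0.64. In DU145 that difference was -0.18 (7.79 against 7.96). Array medians over named genes ran from 7.63 to 7.70 in LNCaP and from 7.36 to 7.42 in DU145, so levels were compared within a line only. A member counted for a line when its mean over the line's 4 arrays reached the median of such means over all named genes. All 48 passed in DU145 and 47 in LNCaP, where CENPH did not.

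The first comparison asked how the mitotic genes differed with siTET2. In LNCaP every one of the 47 members was lowest in the siTET2 array, below nc, miR-29b and siControl alike (46 of 47 with arrays centred on their medians). Over all 9209 genes above the floor, siTET2 was the lowest array for 22.7%. In DU145 siTET2 was lowest for 39 of 48, against 38.7% of all genes. Of the 47 members above the floor in both lines, 38 were lowest with siTET2 in both, against 14.4% of 8082 genes. Each array held RNA of a whole dish, so fewer cells in G2 and mitosis cannot be told apart from less mitotic RNA per cell.

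The order of the other 3 arrays differed between the lines. In LNCaP, siControl was the highest array for 31 of 47 members (26.7% of all genes), miR-29b for 13 (22.8%) and nc for 3 (22.7%), the last being PLK1, AURKB and DEPDC1B. As a difference from the gene's mean in that line, the members' median log2 value was -0.05 with nc, 0.19 with miR-29b, 0.27 with siControl and -0.40 with siTET2. In DU145 these medians were 0.04, 0.06, 0.06 and -0.15, and the highest array was siControl for 19 members (19.6% of all genes), nc for 16 (35.7%), miR-29b for 12 (14.6%) and siTET2 for 1, PLK4 (30.1%). The siTET2 array lay below the other 3 by more than their own range for 22 of 47 members in LNCaP (7.33% of all genes) and 26 of 48 in DU145 (17.2%).

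**Figure D2:**
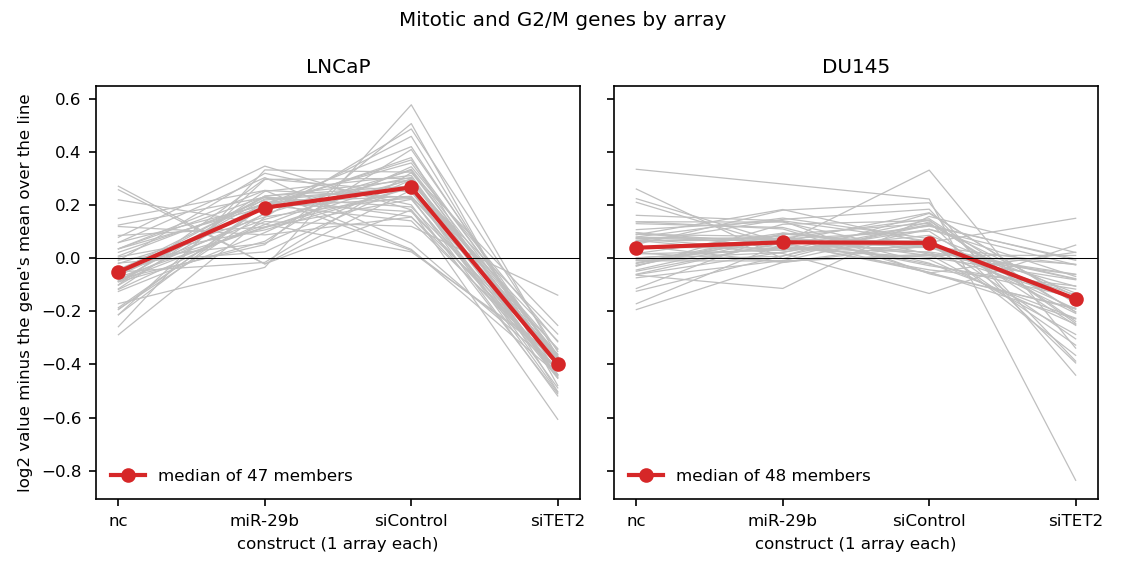
Log2 value of each member minus its mean over the line's 4 arrays (y axis), by construct (x axis, 1 array each), for 47 members in LNCaP and 48 in DU145; grey lines join the values of 1 gene and red points are the medians. All 47 LNCaP lines reach their lowest point at siTET2, where the median is -0.40, whereas the DU145 medians are near 0 with nc, miR-29b and siControl and -0.15 with siTET2.

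Measured as siTET2 minus siControl, all 47 members were below 0 in LNCaP, with a median log2 difference of -0.68 and a range of -0.99 to -0.26, beside a median of 0.01 over all genes. At least 1.5-fold lower were 33 of 47, against 2.27% of all genes, and 44 of 47 were among the lowest 5 percent of all genes, which lay at or below -0.41; 0 were 2-fold lower (0.0977% of all genes). In DU145, 45 of 48 were below 0 (53.1% of all genes), with a median of -0.18 beside -0.01, 3 were at least 1.5-fold lower (1.52% of all genes) and 15 at least 20% lower (7.57%). The choice of control mattered in LNCaP, where siControl lay above nc for 41 of 47 members. Set against nc, all 47 were still below 0 (45.6% of all genes), but the median was -0.35 and 5 were at least 1.5-fold lower (0.456% of all genes). Set against nc in DU145, 40 of 48 were below 0 (57.9% of all genes), the median was -0.18 and 2 were at least 1.5-fold lower (2.41% of all genes).

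The differences in the 2 lines were then set side by side. CDK1, SPAG5 and DEPDC1B were at least 1.5-fold lower with siTET2 than with siControl in both lines, 3 of the 47 members above both floors against 0.384% of 8082 genes. Across the 47 members the LNCaP and DU145 differences, which share no array, were correlated with r = 0.29 (Pearson) and rho = 0.18 (Spearman), beside 0.39 and 0.35 over all 8082 genes. Whether the lines differ could not be tested with 1 array per line and construct.

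**Figure D3:**
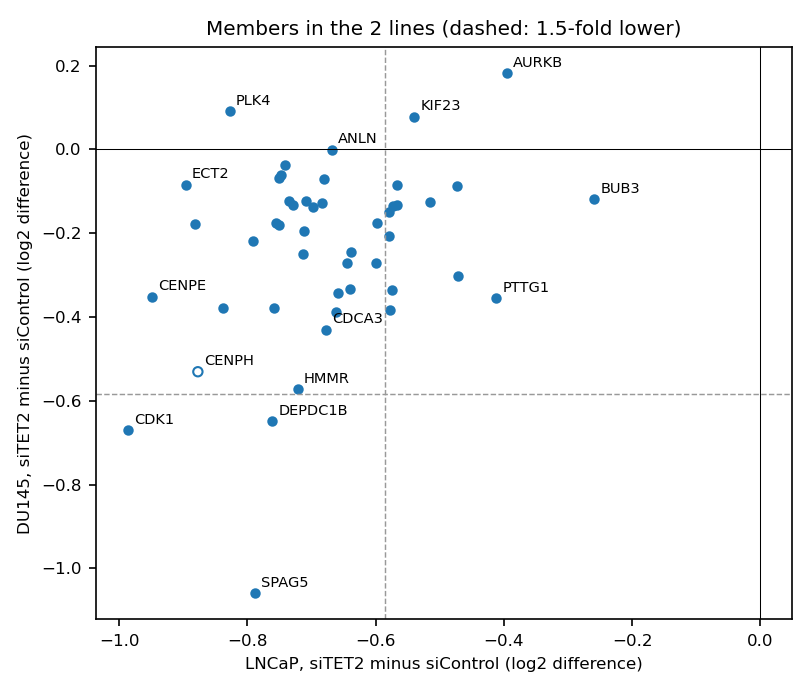
Log2 difference of siTET2 minus siControl in LNCaP (x axis) and DU145 (y axis) for the 48 members, 1 point per gene; the open point is CENPH, below the level floor in LNCaP, and dashed lines mark 1.5-fold lower. All points lie left of 0, between -0.99 (CDK1) and -0.26 (BUB3), while DU145 values run from -1.06 (SPAG5) to 0.18 (AURKB).

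The effect of siTET2 shared by both lines was tested with limma over all 8 arrays, with terms for line and construct and with p-values adjusted over the 9209 genes whose mean level was at or above the median. Nothing in the labels names separate cultures, and the spread behind these p-values, that between arrays of different lines given the same construct, may be partly technical. All 48 members entered, their common log2 differences ran from -0.92 to -0.11, and the median was -0.43 beside 0 over all genes. By limma's adjusted p, 3 members fell and 0 rose, against 0.347% and 0.0326% of all genes, and at an unadjusted p below 0.05 it had 42 lower and 0 higher, against 8.27% and 5.47%. With nc in place of siControl, limma called 1 member (SPAG5) and the median common difference was -0.28.

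**Figure D4:**
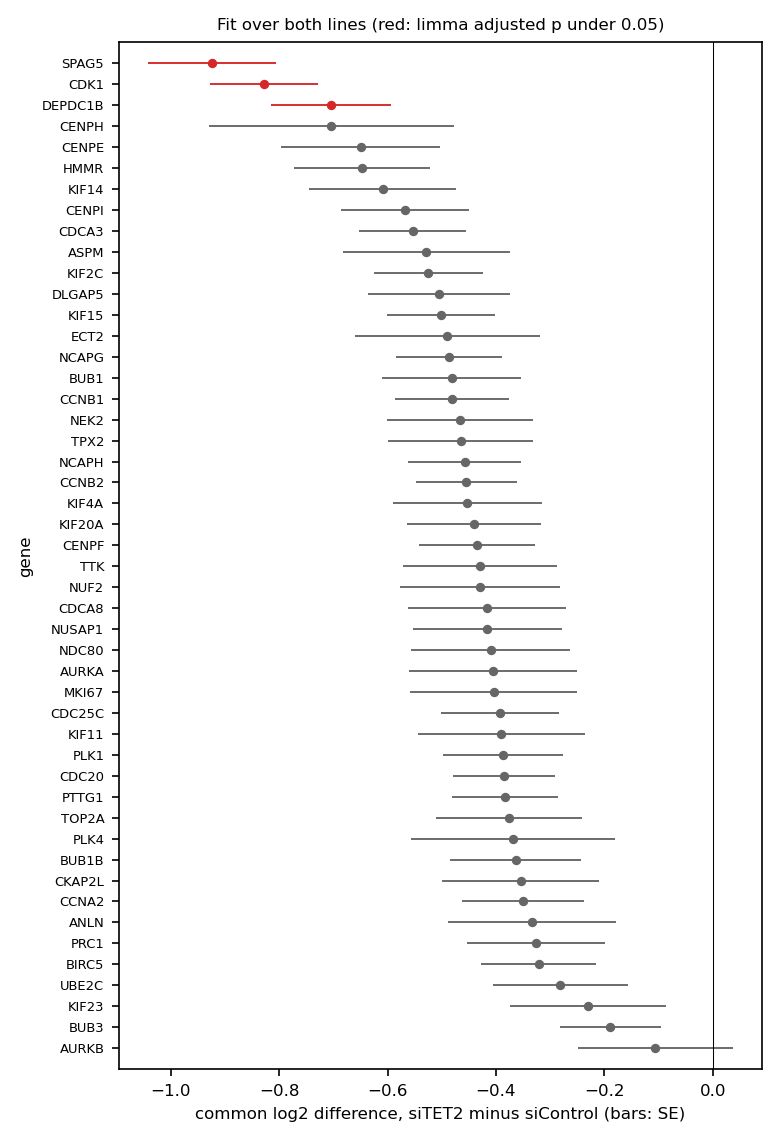
Common log2 difference of siTET2 minus siControl (x axis) from the limma fit over both lines for the 48 members (y axis), with bars of 1 SE; red marks limma adjusted p under 0.05. SPAG5 (-0.92), CDK1 (-0.83) and DEPDC1B (-0.70) are red, and AURKB (-0.11) is nearest to 0.

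CDK1, the kinase whose activity drives entry into mitosis, had log2 levels of 11.22 (nc), 11.35 (miR-29b), 11.81 (siControl) and 10.82 (siTET2) on the LNCaP arrays. In DU145 its log2 levels were 10.54, 10.65, 10.92 and 10.25 in the same order. The siTET2 array was lowest and siControl highest in both lines. The siTET2 level was 1.98-fold below siControl in LNCaP and 1.59-fold in DU145, and in the common fit CDK1 fell, by a log2 difference of -0.83 with an SE of 0.099 (limma adjusted p = 0.0211). In LNCaP and DU145 siControl lay 0.58 and 0.38 above nc, and siTET2 lay at -0.40 and -0.29 from nc.

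SPAG5, also called astrin, binds spindle microtubules and kinetochores and keeps sister chromatids together until anaphase. In LNCaP it had log2 levels of 10.35 (nc), 10.62 (miR-29b), 10.46 (siControl) and 9.67 (siTET2), against 11.24, 11.18, 11.12 and 10.07 in DU145. The 3 other arrays of a line lay within 0.27 of each other, and siTET2 lay well below them in both lines. SPAG5 fell, by a common log2 difference of -0.92 with an SE of 0.118 (limma adjusted p = 0.0255), and it was the only member at least 2-fold lower in either line (2.08-fold in DU145, where 0.217% of all genes were at least 2-fold lower). A dimmer probe set that the annotation shares between SPAG5 and its neighbour RSKR differed by 0.11 in LNCaP and -0.40 in DU145.

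DEPDC1B, a DEP-domain protein with a role in the loss of adhesion before mitosis, had log2 levels of 9.70 (nc), 9.41 (miR-29b), 9.69 (siControl) and 8.92 (siTET2) on the LNCaP arrays. In DU145 the levels were 9.22, 9.35, 9.38 and 8.73. The nc and siControl arrays were alike in LNCaP (-0.01), and siTET2 lay below every other array in both lines. It fell, by a common log2 difference of -0.70 with an SE of 0.111 (limma adjusted p = 0.0450). In LNCaP it was also 1 of 4 members above the floor below 0 with miR-29b (-0.29, miR-29b minus nc).

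**Figure D5:**
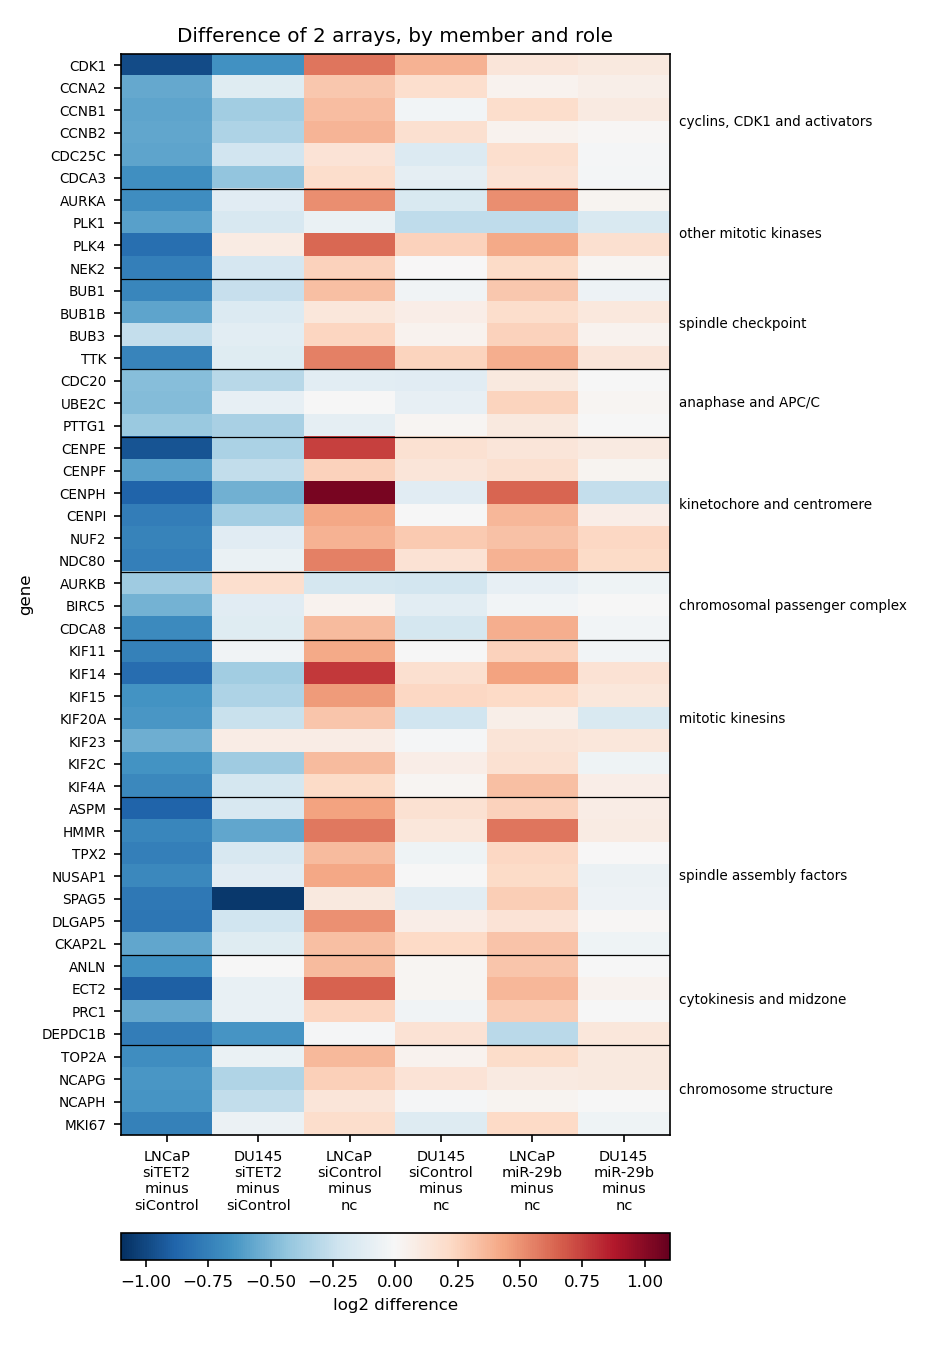
Log2 difference of 2 arrays (colour, blue below 0 and red above 0) for the 48 members (rows, grouped by role) in 6 comparisons (columns). The siTET2 minus siControl column of LNCaP is blue throughout (-0.99 to -0.26) and that of DU145 is mostly paler, with SPAG5 (-1.06), CDK1 (-0.67) and DEPDC1B (-0.65) the darkest, whereas siControl minus nc in LNCaP is mostly red, with CENPH at 1.04.

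Among the cyclins and activators of CDK1, the LNCaP values were close together. CCNA2 (cyclin A2), CCNB1 and CCNB2 (B cyclins) and CDC25C, the phosphatase that activates CDK1, lay between -0.58 and -0.57 from siControl, and CDCA3, an adaptor for destruction of the CDK1 inhibitor WEE1, at -0.68. In DU145, CDCA3 (-0.43), CCNB1 (-0.38) and CCNB2 (-0.34) were lower than CDC25C (-0.21) and CCNA2 (-0.13). CCNB1 had log2 levels in LNCaP of 10.44 (nc), 10.63 (miR-29b), 10.78 (siControl) and 10.20 (siTET2), and 10.19, 10.29, 10.16 and 9.78 in DU145, so siTET2 was the lowest array of each line. CCNA2 in DU145 was lowest with nc (10.68), with siTET2 at 10.73. All 6 of the group were lower at an unadjusted limma p below 0.05 (8.27% of all genes), and CDK1 alone passed after adjustment (0.347%).

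A group of other mitotic kinases held AURKA, PLK1, PLK4 and NEK2. All 4 were at least 1.5-fold lower than with siControl in LNCaP (2.27% of all genes). In DU145 their median was -0.15, beside -0.18 for all members. There siTET2 was the lowest array for AURKA, PLK1 and NEK2 (38.7% of all genes). AURKA, which builds spindle poles, was at -0.68 and -0.13, PLK1, which acts at centrosomes, kinetochores and the cleavage site, at -0.60 and -0.18, and NEK2, which splits the centrosomes, at -0.75 and -0.18. PLK4 sets the number of centrioles. Its log2 levels were 8.98 (nc), 9.39 (miR-29b), 9.61 (siControl) and 8.78 (siTET2) on the LNCaP arrays but 9.68, 9.86, 9.93 and 10.02 in DU145, and siTET2 was thus the lowest array of one line and the highest of the other. The PLK4 common difference of -0.37 had an SE of 0.188 (limma adjusted p = 0.431).

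The spindle checkpoint holds anaphase until all kinetochores are attached. BUB1 (-0.71), BUB1B (-0.58) and TTK (-0.73), kinases or pseudokinases of the checkpoint, were lower in LNCaP, and at -0.25, -0.15 and -0.13 in DU145. BUB3, a WD-repeat adaptor, differed least of all members in LNCaP, with log2 levels of 10.69 (nc), 10.94 (miR-29b), 10.93 (siControl) and 10.67 (siTET2), so that siTET2 and nc differed by -0.02. Its common difference was -0.19 (SE 0.093, limma adjusted p = 0.415).

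For the genes of anaphase the LNCaP controls lay close together. CDC20 activates the anaphase-promoting complex (APC/C), UBE2C is its ubiquitin-conjugating enzyme and PTTG1 (securin) its substrate that restrains separase. In LNCaP they were at -0.47, -0.47 and -0.41 from siControl, and siControl differed from nc by -0.12, 0 and -0.10, so the distance to nc was as large (-0.59, -0.48 and -0.51). In DU145 they were at -0.30, -0.09 and -0.35. PTTG1 has near-identical gene copies that its probes may also read.

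Among kinetochore and centromere genes, siControl lay above nc in LNCaP for all 5 above the floor. CENPE, a kinesin that moves chromosomes to the spindle equator, had log2 levels of 8.83 (nc), 8.96 (miR-29b), 9.57 (siControl) and 8.63 (siTET2) on the LNCaP arrays, and 9.13, 9.22, 9.29 and 8.94 in DU145. It was 1.93-fold below siControl in LNCaP, but siTET2 and nc differed by -0.20. CENPH, of the inner kinetochore, was the dimmest member in LNCaP, at 7.08 (nc), 7.71 (miR-29b), 8.12 (siControl) and 7.24 (siTET2), where nc and not siTET2 was lowest. In DU145 its levels were 8.09, 7.83, 7.97 and 7.44, with siTET2 lowest.

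The other kinetochore genes were lower with siTET2 than with siControl in both lines. CENPI was at -0.76 in LNCaP and -0.38 in DU145 (siTET2 minus siControl), and CENPF, a large protein of the outer kinetochore, at -0.60 and -0.27. NUF2 (-0.73) and NDC80 (-0.75), partners in the complex that grips microtubules, were alike in LNCaP and alike in DU145 (-0.12 and -0.07), where nc was the lowest array for both. All 6 of the group were lower at an unadjusted limma p below 0.05 (8.27% of all genes), and 0 passed after adjustment (0.347%).

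The chromosomal passenger complex corrects wrong attachments and then guides cytokinesis, and its catalytic kinase differed in DU145. AURKB had log2 levels of 9.95 (nc), 9.86 (miR-29b), 9.75 (siControl) and 9.36 (siTET2) on the LNCaP arrays, and 10.62, 10.57, 10.42 and 10.60 in DU145. In DU145 siControl was its lowest array and siTET2 lay at 0.18 from siControl and -0.02 from nc. Its partners BIRC5 (survivin) and CDCA8 (borealin) were at -0.52 and -0.70 in LNCaP and at -0.13 and -0.14 in DU145. The AURKB common difference of -0.11 (SE 0.143, limma adjusted p = 0.783) was the smallest of the 48. A second and dimmer BIRC5 probe set differed by 0.03 in LNCaP and -0.0017 in DU145.

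The mitotic kinesins lay between -0.84 and -0.54 in LNCaP, 6 of 7 at least 1.5-fold lower than with siControl (2.27% of all genes). KIF14, which acts in cytokinesis, was lowest at -0.84, but siControl lay 0.77 above nc, and siTET2 and nc differed by -0.06. KIF11, which pushes spindle poles apart, was at -0.74 and KIF4A, a chromosome-bound motor, at -0.71. In DU145, KIF2C, which shortens microtubules at kinetochores, was at -0.39, KIF14 at -0.38 and KIF15, a spindle motor that backs up KIF11, at -0.34, whereas KIF11 was at -0.04 and KIF23, a motor of the midzone, at 0.08. A probe set shared by KIF4A and its near-identical copy KIF4B was at -0.60 in LNCaP and -0.01 in DU145.

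Of the spindle assembly factors besides SPAG5, HMMR had log2 levels of 9.76 (nc), 10.35 (miR-29b), 10.34 (siControl) and 9.62 (siTET2) on the LNCaP arrays, and 9.33, 9.42, 9.45 and 8.88 in DU145. The siTET2 array was lowest in both lines, and in LNCaP nc lay near it. ASPM, which focuses spindle poles, was at -0.88 and -0.18 (siTET2 minus siControl in LNCaP and DU145), DLGAP5, which steadies kinetochore fibres, at -0.79 and -0.22, and TPX2, the activator of AURKA, at -0.75 and -0.17. NUSAP1, which bundles microtubules, was at -0.71 and -0.12. CKAP2L was at -0.57 and -0.14.

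For cytokinesis, ECT2, which activates RHOA to set the furrow, was at -0.90 in LNCaP and -0.08 in DU145, and ANLN, the scaffold anillin, at -0.67 and 0. PRC1, which bundles microtubules at the midzone, was at -0.57 and -0.08. For ANLN the 4 DU145 log2 levels lay between 11.85 and 11.87. The difference in LNCaP therefore had no counterpart of that size in DU145 for these 3 genes, though the difference between the lines was not tested.

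Among genes of chromosome structure, TOP2A, which untangles DNA, was at -0.68 in LNCaP and -0.07 in DU145, and the condensin subunits NCAPG and NCAPH at -0.64 and -0.65 in LNCaP and -0.33 and -0.27 in DU145. MKI67, the proliferation antigen that coats mitotic chromosomes, had log2 levels of 10.09 (nc), 10.31 (miR-29b), 10.28 (siControl) and 9.54 (siTET2) on the LNCaP arrays, and 11.36, 11.32, 11.22 and 11.16 in DU145. The siTET2 array was lowest in both lines, by 0.55 in LNCaP. All 4 genes were lower at an unadjusted limma p below 0.05 (8.27% of all genes), and 0 passed after adjustment (0.347%).

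With miR-29b the members lay above nc in LNCaP. The mature sequence, as RefSeq gives it for hsa-miR-29b-3p, with the seed (bases 2 to 8) in capitals, is shown because it is the other agent transfected; the labels do not name the arm.
hsa-miR-29b-3p: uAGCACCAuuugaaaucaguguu
In LNCaP, 43 of 47 members were above 0 (miR-29b minus nc), where 44.2% of all genes were below 0, with a median log2 difference of 0.21 beside 0.02 over all genes. HMMR (0.59) was the only member at least 1.5-fold higher above the floor, against 0.51% of all genes, with 10 at least 25% higher (5.55%) and 0 at least 2-fold higher (0.076%), followed by AURKA (0.51), KIF14 (0.44), PLK4 (0.41) and TTK (0.40). The 4 below 0 were DEPDC1B (-0.29), PLK1 (-0.28), AURKB (-0.09) and BIRC5 (-0.03). TET2 on this LNCaP miR-29b array lay at -0.64 from nc and -0.41 from siControl. Whether member levels follow the TET2 level was not tested.

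The direction depended on the control. Set against siControl, 33 of 47 members were below 0 (49.1% of all genes) and the median was -0.08, with 0 members at least 1.5-fold higher (0.195% of all genes). In DU145, 28 of 48 members were above 0 (miR-29b minus nc), where 65.5% of all genes were below 0, with a median of 0.02 beside -0.04 over all genes, and 0 were at least 1.5-fold higher or lower (0.0652% and 0.0543% of all genes). NUF2 (0.23), NDC80 (0.21) and PLK4 (0.18) were highest there and CENPH (-0.26) lowest. In the fit over both lines limma called 0 members in either direction (0% of all genes in both), with 1 higher (HMMR, 0.34, SE 0.125) and 0 lower at an unadjusted p below 0.05, against 1.09% and 2.65% of all genes.

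The control arrays differed from each other in these genes. In LNCaP, siControl minus nc had a median of 0.34 over the members beside 0.02 over all genes, with 41 of 47 above 0 (45.8% of all genes were below 0), 25 at least 25% higher (10.3% of all genes) and 0 past 2-fold (0.0652%). The 4 members past 1.5-fold (1.53% of all genes) were KIF14 (0.77), CENPE (0.75), ECT2 (0.65) and PLK4 (0.63). In DU145 the median was 0.02 beside -0.03, with 26 of 48 above 0 (57.6% of all genes were below 0), 0 at least 1.5-fold higher (0.141% of all genes) and 1 at least 25% higher (1.63%); CDK1 was highest (0.38) and PLK1 lowest (-0.28). Across the 47 members the differences in the 2 lines were correlated with r = 0.56 (Pearson) and rho = 0.56 (Spearman), beside 0.40 and 0.45 over all genes. In the common fit limma called 0 members in either direction (0% of all genes in both), with 9 higher and 0 lower at an unadjusted p below 0.05 (6.87% and 6.29% of all genes), CDK1 (0.48, SE 0.099) and KIF14 (0.47, SE 0.136) in front.

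The siControl array thus enters the siTET2 differences. Dish density, transfection and array batch were not recorded in the sources used here, and their part was not tested. Some members, picked by their siControl minus nc difference after the values were seen, are given for both ends. These differences share arrays, so the pattern follows from the arithmetic of the choice and is no test. DEPDC1B, UBE2C and BIRC5, with siControl within 0.04 of nc in LNCaP, had siTET2 at -0.76, -0.47 and -0.52 from siControl and at -0.78, -0.48 and -0.48 from nc. At the other end, KIF14, CENPE, ECT2 and PLK4 had siTET2 between -0.95 and -0.83 from siControl and between -0.25 and -0.06 from nc.

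Other genes of the pathway were taken by list. Of 59 further mitotic genes, 58 were measured and 55 entered the common fit. All 55 were below 0 with siTET2 (4611 of all 9209 genes), with a median common log2 difference of -0.34. Limma's adjusted threshold was passed by 0 (0.347% of all genes lower), and 38 were lower at an unadjusted p below 0.05 (8.27%). SPC24, a subunit of the NDC80 complex, was at -0.73 in LNCaP and -0.56 in DU145, and KIF18B, a motor that shortens astral microtubules, at -0.68 and -0.41. NCAPG2, a condensin II subunit, was at -0.78 and -0.35, and KIF20B, a cytokinesis motor, at -0.78 and -0.36. In LNCaP 25 of 55 above the floor were at least 1.5-fold lower (2.27% of all genes), and in DU145 0 of 56 (1.52% of all genes).

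The APC/C list, its subunits and the enzyme UBE2S, showed smaller values in LNCaP but similar ones in DU145. The subunits are not known for periodic transcripts. The list's median siTET2 minus siControl was -0.07 in LNCaP and -0.17 in DU145, beside -0.68 and -0.18 for the members. Below 0 were 10 of 14 in LNCaP (46.6% of all genes) and 13 of 15 in DU145 (53.1%). The median common difference was -0.13 over 15 genes, with 0 past the adjusted limma threshold (0.347% of all genes lower). At an unadjusted limma p below 0.05, 4 were lower and 0 higher (8.27% and 5.47% of all genes). CDC23 was at -0.77 in LNCaP and -0.40 in DU145, ANAPC1 at -0.38 and -0.43, UBE2S, the enzyme that extends ubiquitin chains, at -0.33 and -0.31, and ANAPC7 at -0.20 and -0.32. DNA replication genes, which peak earlier in the cycle, had a median common difference of -0.37, with 27 of 28 below 0 (4611 of all 9209 genes). Their median siTET2 minus siControl was -0.55 in LNCaP and -0.17 in DU145. Against nc in LNCaP it was -0.33, beside -0.35 for the members. At least 1.5-fold lower than with siControl were 12 of 28 in LNCaP (2.27% of all genes) and 0 in DU145 (1.52%). Of the 28, 0 were past the adjusted limma threshold (0.347% of all genes lower) and 21 lower at an unadjusted p below 0.05 (8.27%). In LNCaP and DU145 MCM10 was at -0.87 and -0.27, GINS1 at -0.79 and -0.39, CDC6 at -0.75 and -0.20, and RRM1, of ribonucleotide reductase, at -0.60 and -0.38. No test set these lists against the mitotic genes.

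The transcription factors of the mitotic program were mixed. FOXM1, its activator, had log2 levels of 10.56 (nc), 10.81 (miR-29b), 10.56 (siControl) and 9.84 (siTET2) on the LNCaP arrays, and 10.51, 10.37, 10.31 and 9.91 in DU145. The LNCaP controls were alike and siTET2 was lowest in both lines, but its common difference of -0.56 (SE 0.124) had a limma adjusted p of 0.105. MYBL2 (B-MYB) was low with both miR-29b (9.89) and siTET2 (9.95) in LNCaP, against 10.53 with nc and 10.61 with siControl, while its 4 DU145 levels lay between 10.98 and 11.21.

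Of the MuvB core, LIN9 was at -0.60 in LNCaP and -0.04 in DU145 (siTET2 minus siControl), LIN54 at -0.44 and 0, and RBBP4 at -0.29 and -0.25, whereas LIN37 was at 0.14 and -0.05 and LIN52 at -0.13 and 0.32. The repressor E2F8 was at -0.89 and -0.18 and E2F7 at -0.55 and -0.02. E2F1, an activator of S phase genes, was at -0.39 and 0.13, and the DREAM components E2F4, E2F5, RBL1 and RBL2 at 0.19, 0.45, -0.57 and -0.21 in LNCaP and at 0.03, 0.07, 0.12 and -0.06 in DU145. Of 21 regulators in the common fit, 14 were below 0 (4611 of all 9209 genes), with a median of -0.13. The adjusted limma threshold was passed by 0 (0.347% of all genes lower). At an unadjusted limma p below 0.05, 4 were lower and 0 higher (8.27% and 5.47% of all genes). The subunits of NF-Y lay between -0.24 and 0.13 in the 2 lines, NFYB being below the level floor in LNCaP.

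Inhibitors of mitosis went both ways. CDKN1A (p21), which blocks CDKs, had log2 levels of 9.42 (nc), 9.20 (miR-29b), 9.29 (siControl) and 10.03 (siTET2) on the LNCaP arrays. In DU145 its log2 levels were 8.09, 7.95, 8.18 and 8.59. It was highest with siTET2 in both lines, with a common log2 difference of 0.57 (limma adjusted p = 0.0605). GADD45A, which inhibits the CDK1 and cyclin B1 complex, was at 0.42 in LNCaP, below the level floor there, and at 0.55 in DU145. WEE1, the kinase that inactivates CDK1, was at -0.58 in LNCaP and 0.32 in DU145, and FBXO5, an inhibitor of the APC/C that is itself periodic, at -0.66 and -0.21. Of the 9 inhibitors, 0 passed the adjusted limma threshold (0.347% of all genes lower and 0.0326% higher). At an unadjusted limma p below 0.05, 2 were lower and 2 higher (8.27% and 5.47% of all genes).

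Within the members, the size of the difference was set beside the promoter letters, with no test. Only these exact letters inside the window were counted. The 29 members with a CHR match had a median siTET2 minus siControl difference of -0.71 in LNCaP and -0.18 in DU145, and the 12 with a window but no match had -0.64 and -0.26. Of the 3 members that fell, CDK1 and DEPDC1B had both motifs, whereas SPAG5 had the CHR letters and no CCAAT.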

How the data were processed

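The authors deposited log2 values, 33297 probe sets by 8 arrays, made with Affymetrix Expression Console and RMA per the submitters' processing notes; versions, and which arrays were normalized together, are not given in the sources used here, and the log base was read from the range of the values. Probe sets were named by the platform annotation, checked through Entrez identifiers against RefSeq. The probe set of highest mean stood for a gene. The members, lists and rules were chosen with earlier results of these data known.

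Within a line, 2 arrays were subtracted, with no test. Common effects were fitted with limma 3.58.1 in R 4.3.3 (lmFit and eBayes, 3 residual degrees of freedom, Benjamini-Hochberg adjustment over all genes, threshold 0.05). Calls of single pairs used 1.5-fold, with 25% higher (or 20% lower) and 2-fold as alternatives; other alternatives were the control, the filter, centring, the probe set rule, a trend, no term for line and leaving out each array. Any member, TET2, all regulators and inhibitors, and the 4 genes of each other list with the largest absolute common siTET2 difference could be named. The fit was tested on simulated data. The number of arrays limits the precision.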

Additional observations from a re-analysis of the deposited data

Results flagged for a closer look

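In 5 cases a member had differences of opposite sign in the 2 lines under the same comparison, each at least 0.15 on the log2 scale; the difference between the lines was not tested. Among the 47 members above both level floors there was 1 case for siTET2 minus siControl, against 3.66% of 8082 genes, 0 for miR-29b minus nc (4.08%) and 3 for siControl minus nc (2.94%). AURKB was at -0.39 in LNCaP and 0.18 in DU145 for siTET2 minus siControl. CENPH, below the floor in LNCaP, was at 0.64 and -0.26 for miR-29b minus nc. For siControl minus nc, AURKA was at 0.51 and -0.17, CDCA8 at 0.35 and -0.19, and KIF20A at 0.30 and -0.22.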

How the results depend on the processing

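The 3 members that fell with siTET2 depend on few arrays. The count was 0 with no filter on dim genes (1 of all 18417 genes called) and 0 without the term for cell line (0 of 9209), 8 with the stricter filter (87 of 4605), 9 with a trend (113 of 9209) and 1 with nc as the control (18 of 9209), against 35 of 9209 genes beside the 3. The calls did not all hold when some single arrays were left out. Each such fit leaves 1 construct with 1 array, so only medians are given for it. The median common difference was -0.28 with nc as the control and -0.61 to -0.26 with an array left out, against -0.43; it was -0.26 without LNCaP siTET2, -0.30 without LNCaP siControl, -0.60 without DU145 siControl and -0.61 without DU145 siTET2. For siControl minus nc the common median was 0.019 to 0.30 with an array left out, the lowest without LNCaP siControl and 0.12 without LNCaP nc. For miR-29b minus nc it was 0.05 to 0.21, with 0.05 without LNCaP miR-29b, 0.07 without LNCaP nc and 0.21 without DU145 miR-29b, and -0.043 with siControl as the control.

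In LNCaP against nc, siTET2 had a median of -0.35, with 5 members at least 1.5-fold lower (0.456% of all genes). With both control arrays averaged these values were -0.50 and 8. Against siControl, 0 were 2-fold lower (0.0977% of all genes). In DU145, 15 were at least 20% lower (7.57% of all genes) and 1 was 2-fold lower (0.217%). For miR-29b in LNCaP, the median was -0.077 against siControl and 0.064 against both averaged. Under each, 0 members were at least 1.5-fold higher (0.195% of all genes against siControl). Against nc, 2 were at least 1.5-fold higher with no filter and 2 with the filter on the higher array (CENPH joining). With the main filter, 10 were at least 25% higher (5.55% of all genes) and 0 were 2-fold higher (0.076%). For siControl minus nc in LNCaP, 9 were at least 1.5-fold higher with centred arrays. Without centring, 25 were at least 25% higher (10.3% of all genes) and 0 were 2-fold higher (0.0652%). In DU145, 1 was at least 25% higher (1.63%). With arrays centred, siTET2 was lowest for 46 of 47 members in LNCaP and 36 of 48 in DU145. The share of all genes was not computed for averaged controls, centred arrays or the other filters, so those counts have no background. A median counted as moved when it shifted by at least 0.129, the members' median spread in the fit. The causes were not tested. Pairing by replicate number could not be tried, since the labels give none; the fit holds cell line as a term.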
